A study of Mus musculus with 8 samples.

Results

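Blood cells of tumor-bearing mice labelled as wild type (WT) were compared between 2 droplet libraries, 1 from mice whose tumors had been irradiated (IR) and 1 from mice whose tumors had not (control). The cells were CD45+CD11b+Ly6Chi cells sorted from blood, the surface phenotype the study calls monocytic myeloid-derived suppressor cells (mMDSC). The mice were C57BL/6J animals of both sexes, aged 8 to 10 weeks, with subcutaneous MC38 tumors, a mouse colon carcinoma line. Treated tumors received a single local dose of 20 Gy, and blood was taken 3 days later. WT mice carried floxed Ythdf2 alleles (Ythdf2 fl/fl) without Cre, and the Ythdf2-cKO mice mixed into the same libraries were Lyz Cre+;Ythdf2 fl/fl, in which Cre, placed at Lyz2, is made in myeloid cells. Cells of 5 mice were pooled for each genotype, tissue and treatment, so control and IR were 1 pool each, with no replicates. The library and the irradiation cannot be told apart, no test of a difference was possible, and each 95% interval below covers counting error only.

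A barcode was kept with at least 500 unique molecular identifiers (UMIs) of genes, at least 200 genes, at most 25% mitochondrial UMIs and at least 20 UMIs of the hashtags, antibody-bound oligonucleotides that mark the mouse genotype. It was labelled WT where hashtag B0301 had at least as many UMIs as hashtag B0302. This gave 5101 WT cells in control and 4900 in IR, 10001 of the 32121 cells kept in the 4 libraries of the series. They held 23813061 gene UMIs in control and 24947262 in IR, with medians of 2844 and 2883 UMIs per cell. Of the barcodes labelled WT, 5 were found in both blood libraries.

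Neutrophils and monocytes leave the bone marrow, where their progenitors divide, and circulate for a short time. Classical monocytes carry Ly6C on their surface and can enter inflamed tissue, whereas nonclassical monocytes patrol the vessel wall. Type I interferons switch on antiviral genes such as Ifit3, Rsad2 and Isg15 in nearly every blood cell. Immediate early genes such as Egr1 and Fos encode transcription factors that appear within minutes of a stimulus, including the handling of cells. The comparison asks what local irradiation of a tumor leaves in the circulating cells.

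The upstream sequences of 4 genes are shown because they belong to the families on which the results below turn, interferon-response genes and genes of the dividing cell. They are the 250 bases before the RefSeq transcription start on GRCm38.p6, written 5′ to 3′ along the gene's strand. In Ifit3 (chr19:34583279-34583528, forward strand) and Ifit3b (chr19:34607707-34607956, forward strand), capitals mark the core of the interferon-stimulated response element (ISRE), searched on both strands as GAAA, any 2 bases and GAAA, and read here as its reverse complement. In Ccnb2 (chr9:70421555-70421804, reverse strand) and Cdca3 (chr6:124829926-124830175, forward strand), capitals mark the CCAAT box, also read as ATTGG, and in Ccnb2 the cell cycle homology region (CHR), searched as TTTGAA.
Ifit3: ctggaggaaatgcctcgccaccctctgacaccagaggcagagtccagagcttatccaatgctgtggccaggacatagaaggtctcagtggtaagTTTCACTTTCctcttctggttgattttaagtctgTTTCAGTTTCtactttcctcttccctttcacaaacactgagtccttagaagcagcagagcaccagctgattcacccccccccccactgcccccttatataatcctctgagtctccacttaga
Ifit3b: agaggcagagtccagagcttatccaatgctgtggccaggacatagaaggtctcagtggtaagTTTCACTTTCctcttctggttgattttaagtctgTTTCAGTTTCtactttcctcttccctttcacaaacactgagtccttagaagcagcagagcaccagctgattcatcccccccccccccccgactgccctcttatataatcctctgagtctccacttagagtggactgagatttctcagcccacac
Ccnb2: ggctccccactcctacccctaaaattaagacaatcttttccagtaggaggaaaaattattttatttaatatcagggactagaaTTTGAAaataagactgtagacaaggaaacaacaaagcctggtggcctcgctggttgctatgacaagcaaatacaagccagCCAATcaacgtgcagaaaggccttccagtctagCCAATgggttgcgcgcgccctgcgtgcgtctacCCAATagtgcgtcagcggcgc
Cdca3: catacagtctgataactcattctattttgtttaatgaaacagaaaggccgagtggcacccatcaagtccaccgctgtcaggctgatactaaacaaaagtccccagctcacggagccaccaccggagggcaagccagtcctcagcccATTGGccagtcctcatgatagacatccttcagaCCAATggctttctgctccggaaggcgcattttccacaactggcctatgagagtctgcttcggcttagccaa

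Ifit3 and Ifit3b each held 2 ISRE cores, and their upstream sequences are near copies of each other. How far the transcript reads of these paralogs can be told apart was not tested. Ccnb2 held 3 CCAAT boxes and 1 CHR, and Cdca3 held 2 CCAAT boxes. An ISRE core was found upstream of 13 of 30 counted members of the type I interferon list with a RefSeq sequence, against 3.46% of 27025 genes. A CCAAT box was found upstream of 13 of 14 counted members of the mitosis list against 37.5% of all genes, and a CHR upstream of 7 of 14 against 18.3%. Of 19 immediate early genes, 2 (Dusp1 and Btg2) held the cyclic AMP response element TGACGTCA, found in 1.77% of genes, and 2 (Egr2 and Zfp36) held a CArG box, found in 1.62%. These matches describe the letters of the windows and not bound sites.

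The labels were checked first. Ythdf2, the m6A reader deleted in the cKO mice, had 809 UMIs in control (34.0 CPM, the gene's UMIs per 1000000 gene UMIs of the pool) and 869 in IR (34.8 CPM), a log2 ratio of 0.04 (95% interval -0.10 to 0.18). In the cells labelled cKO it stood at 284 and 314 CPM, which goes against the label on its face. A 3′ tag can lie outside the deleted part of a gene and then checks nothing about the deletion. Lyz2, whose locus carries Cre in the cKO mice, stood at 13811 and 13212 CPM in WT against 997 and 867 CPM in cKO. WT therefore names the hashtag label throughout. In WT cells the median count was 726 UMIs of B0301 against 32 of B0302 in control, and 948 against 34 in IR.

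Markers went against calling all of these cells monocytic. Clustering of the WT cells placed 67.8% of control cells (3457 of 5101, 66.5% to 69.1%) and 73.9% of IR cells (3620 of 4900, 72.6% to 75.1%) in clusters with raised neutrophil markers, called neutrophil-like here. Monocyte-like cells made up 13.7% (700 cells) and 15.1% (740 cells), and nonclassical monocyte-like cells 9.33% (476) and 6.69% (328). The sorted surface molecules were present as transcripts. Ptprc, which encodes CD45, stood at 1865 and 1742 CPM, and Itgam, which encodes CD11b, at 353 and 434 CPM. Ly6c2, which encodes Ly6C, stood at 749 and 1069 CPM, a log2 ratio of 0.51 (0.49 to 0.54). Its ratio was 0.34, 0.42 and 0.52 within the neutrophil-like, monocyte-like and nonclassical monocyte-like cells. Ly6C and CD11b were gated in the sort, so their levels and the shares of classes depend on the gate.

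Neutrophil-like cells had the larger share after IR, by 6.11 percentage points (4.33 to 7.88). Nonclassical monocyte-like cells had a smaller share after IR, a difference of -2.64 points (-3.70 to -1.58). The difference was -2.09 points (-2.80 to -1.38) for natural killer (NK) cell-like cells and -0.959 points (-1.45 to -0.481) for conventional dendritic cell-like cells. NK cell-like cells went from 224 (4.39%) to 113 (2.31%) and conventional dendritic cell-like cells from 102 (2.0%) to 51 (1.04%). T cell-like cells numbered 42 in control (0.823%) and 9 in IR (0.184%), a difference of -0.640 points (-0.940 to -0.370). B cell-like cells numbered 31 and 17, and the interval of their difference included 0. The monocyte-like share was 1.38 points higher (0.00264 to 2.76), a difference that turned to -0.0678 points with a coarser clustering and to 0.0267 points with a finer one. A cluster of 69 control cells (1.35%) and 22 IR cells (0.449%) was left unnamed. Its cells had a median of 1396 UMIs, 7.14% of them mitochondrial.

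**Figure D1:**
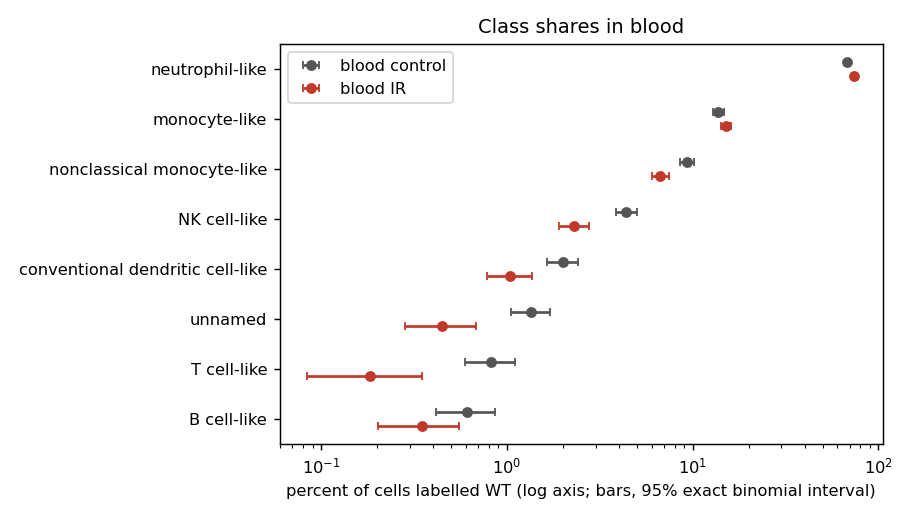
Percent of cells labelled WT in each class (log axis) in blood control (grey) and blood IR (red), with exact binomial 95% intervals for counting error. The neutrophil-like points stand at 67.8% and 73.9%, and the T cell-like points at 0.823% and 0.184% are the farthest apart on the log axis.

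Over all WT cells, 9922 genes were counted, those with at least 100 UMIs over both pools. A gene was past the limit with a log2 ratio of CPM (IR over control, 1 UMI scaled to depth added to each sum) of at least 1 in size and an interval that did not include 0. By this rule 35 genes were higher after IR, 0.353% of those counted, and 91 were lower, 0.917%. With the interval alone, 21.5% of genes were higher and 14.6% lower, and the median ratio of all counted genes was 0.03. The genes higher after IR were led by genes of dividing cells, primary granule genes and a few interferon-response genes. The genes lower after IR were led by hemoglobin, T cell, NK cell and immediate early genes.

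**Figure D2:**
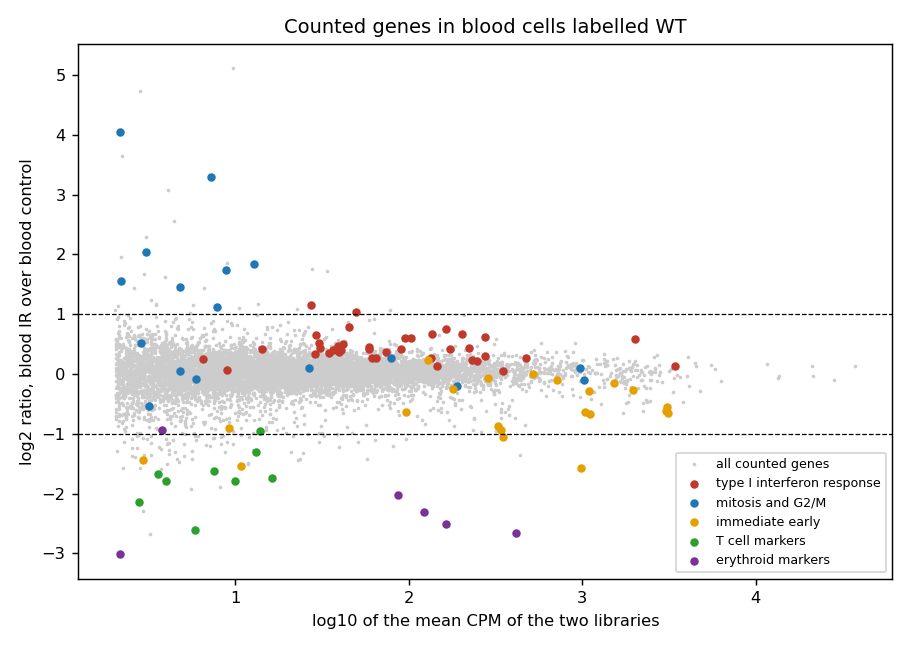
Log2 ratio of IR over control against the log10 of the mean CPM for the 9922 counted genes (grey) in cells labelled WT, with 5 gene lists in color and dashed lines at 1 and -1. Interferon-response genes (red) lie in a band mostly above 0, immediate early genes (orange) mostly below 0, and mitosis genes (blue) reach 4.05 among genes of low level.

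The type I interferon response was higher after IR as a group. Of its 42 listed genes, 40 were in the files and 39 were counted. Intervals lay above 0 for 37, against 21.5% of all counted genes, and below 0 for none, against 14.6%. Past the limit were 2, both higher, against 0.353% of all counted genes. The median ratio was 0.42 (lowest 0.05, highest 1.15), and the summed level went from 8469 to 10718.5 CPM. Ifit3b had 404 UMIs in 216 control cells and 942 in 444 IR cells, a ratio of 1.15 (0.98 to 1.33). Ifit3 (chr19:34583531-34588731, forward strand), which encodes a protein that helps bind viral RNA, had 776 UMIs in 295 cells and 1661 in 616 cells, a ratio of 1.03 (0.91 to 1.16). The transcription factor genes Stat2 and Irf7 had smaller ratios of 0.35 and 0.26. The 2 members whose intervals included 0 were Ifit1bl1 (0.26, -0.07 to 0.59) and Phf11d (0.07, -0.21 to 0.35).

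The response differed in size between the classes. In neutrophil-like cells the median was 0.75, and 35 of 36 counted members had intervals above 0 against 17.1% of all genes counted there, and none below 0 against 11.6%. In nonclassical monocyte-like cells it was 0.46, with 33 of 36 above 0 against 15.1% and none below 0 against 8.41%. In monocyte-like cells it was 0.03, with 6 of 38 above 0 against 17.4% and 9 below 0 against 11.2%. Ifit3 was the member with the highest ratio in neutrophil-like cells and the lowest in monocyte-like cells, and so shows the contrast at its largest. It went from 332 to 1244 UMIs in neutrophil-like cells (36.0 to 124 CPM, ratio 1.78, 1.61 to 1.96) and from 106 to 210 in nonclassical monocyte-like cells (23.3 to 52.1 CPM, ratio 1.16, 0.82 to 1.52). In monocyte-like cells it went from 304 to 182 UMIs (40.6 to 18.9 CPM, ratio -1.10, -1.38 to -0.84). The monocyte-like cells with an Ifit3 UMI numbered 78 of 700 in control and 83 of 740 in IR, so the UMIs per such cell differed rather than the share. With a finer clustering, a monocyte-like cluster led by Cxcl10 and Ifit genes held 27 control and 13 IR cells. Other members lower in monocyte-like cells included Ifit1bl1 (-1.03) and Rsad2 (-0.73), while Ifi27l2a (0.32), Zbp1 (0.34) and Oas3 (0.39) were higher there. With 1 pool per treatment the difference between classes could not be tested.

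Shares of cells with a UMI were compared at equal depth. With each cell thinned to 1500 UMIs, 3.24% of neutrophil-like cells held an Ifit3 UMI in control (2.66% to 3.91%) and 8.76% in IR (7.84% to 9.76%). With 5000 UMIs the share was 6.88% and 6.79% in monocyte-like cells and 7.81% and 22% in nonclassical monocyte-like cells. Thinning left out 190 and 163 neutrophil-like, 2 and 4 monocyte-like, and 28 and 5 nonclassical monocyte-like cells. Without thinning, 295 of 5101 WT cells (5.78%) in control and 616 of 4900 (12.6%) in IR held an Ifit3 UMI. At least 10 UMIs of the whole list were found in 31.1% of thinned neutrophil-like cells in control and 53.2% in IR. The neutrophil-like class was held mostly by clusters 0 (1611 cells) and 1 (968 cells) in control, and by clusters 0 (1237 cells), 3 (841 cells) and 4 (753 cells) in IR, and cluster 3 was itself led by interferon-response genes. Droplets with fewer than 100 gene UMIs, which hold mostly free RNA, had 20.7 CPM of Ifit3 in control and 73.0 CPM in IR, and the part of free RNA in these values was not tested.

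**Figure D3:**
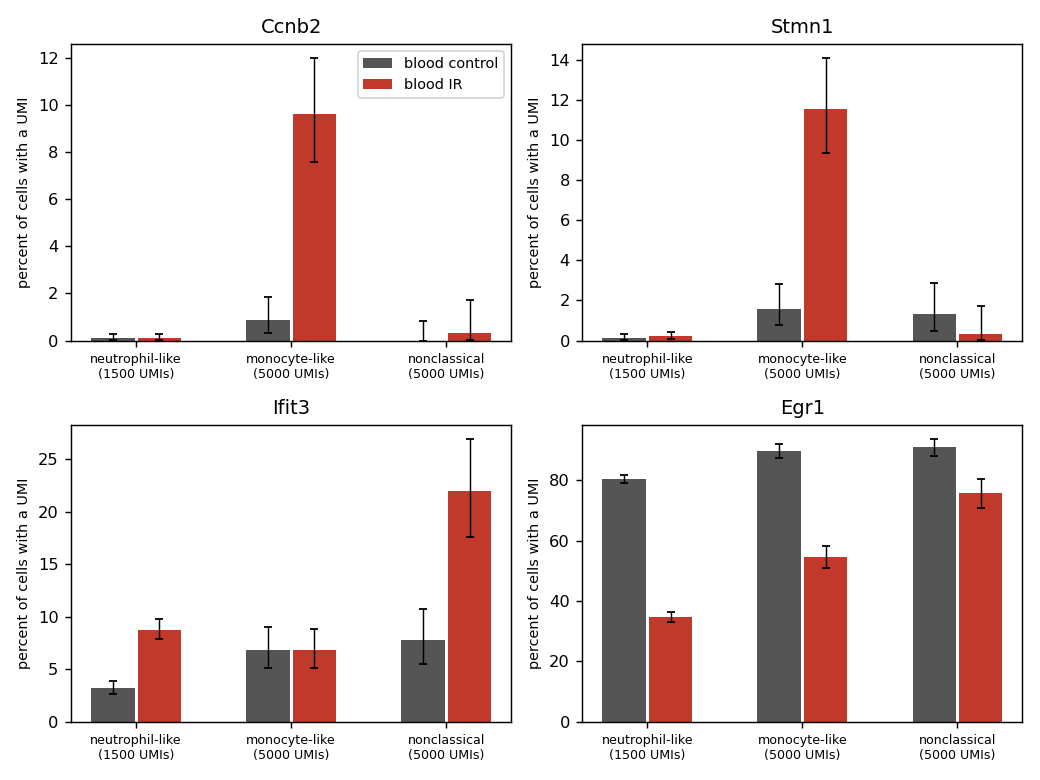
Percent of cells with a UMI of Ccnb2, Stmn1, Ifit3 or Egr1 in 3 classes of cells labelled WT, each cell thinned to the number of UMIs under its class, in blood control (grey) and blood IR (red), with exact binomial 95% intervals. Ccnb2 and Stmn1 differ in monocyte-like cells, Ifit3 in neutrophil-like and nonclassical monocyte-like cells, and Egr1 in all 3 classes.

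Genes of the interferon gamma response were also higher on balance. Of 25 genes 23 were counted, 18 had intervals above 0 against 21.5% of all counted genes and 2 below against 14.6%, and the median ratio was 0.32. The guanylate-binding protein gene Gbp2, whose product attacks intracellular pathogens, had 1203 and 2637 UMIs, a ratio of 1.06 (0.97 to 1.16), in 717 and 1158 cells. Gbp3, Gbp5 and Gbp7 had ratios of 0.85, 0.98 and 0.92. Cd274, which encodes the checkpoint ligand PD-L1, went from 459 to 829 UMIs (0.78, 0.62 to 0.95). The antigen-processing genes Tap1, Psmb8 and Psmb9 had ratios of 0.38, 0.32 and 0.40, whereas Irf8 (-0.24) and Ciita (-0.52) were lower. Medians were 0.61, 0.28 and 0.50 in the neutrophil-like, monocyte-like and nonclassical monocyte-like cells. Cxcl9, a chemokine that attracts T cells, had 24 UMIs in 6 control cells and 127 in 8 IR cells (2.29, 1.70 to 3.03), so very few cells set its value. Cxcl10, a related chemokine, went from 33 to 195 UMIs in neutrophil-like cells (2.41, 1.90 to 3.02), where it had the highest ratio, and stood at 42.5 CPM in monocyte-like cells of both pools.

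Genes of dividing cells had the highest ratios apart from granule genes. Of 28 mitosis genes 17 were counted, and 8 were past the limit, against 0.353% of all counted genes. Intervals lay above 0 for 11, against 21.5% of all counted genes, and below 0 for 3, against 14.6%. The median ratio was 0.51. Birc5, which encodes survivin and acts at the centromere, had 5 UMIs in 5 control cells and 103 in 52 IR cells, a ratio of 4.05 (3.03 to 5.95). Ccnb2 (chr9:70407692-70421547, reverse strand), which encodes cyclin B2, a partner of the mitotic kinase CDK1, had 31 UMIs in 18 cells and 327 in 129 cells, a ratio of 3.29 (2.80 to 3.91). Stmn1, which encodes the microtubule regulator stathmin, went from 133 UMIs in 99 cells to 501 in 217 cells (1.84, 1.57 to 2.13). Cdca3, which takes part in the entry into mitosis, went from 28 to 124 UMIs (2.04, 1.48 to 2.73). Ube2c (1.74), Cdca8 (1.55), Mki67 (1.46) and Cks1b (1.12) were the other members past the limit. Members found in most cells were close to 0 or below, among them H2afz (0.10), Hmgb2 (-0.11) and Cks2 (-0.21).

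Outside the mitosis list, Spc24, which encodes a kinetochore subunit, went from 7 to 104 UMIs (3.65, 2.73 to 5.18) and Cdkn3, which encodes a phosphatase acting on cyclin-dependent kinases, from 21 to 88 (1.95, 1.30 to 2.76). Of 20 genes of DNA replication 13 were counted. Of these, 5 had intervals above 0 against 21.5% of all counted genes and none below against 14.6%, with a median of 0.21. Without the 10 cells with most UMIs of each gene it was 0.07, with 2 of 10 counted members above 0, and with means of per-cell CPM the median log2 ratio of DNA replication and S phase genes was -0.25. Pclaf, which encodes a partner of the replication clamp PCNA, was the only one past the limit, with 20 and 184 UMIs (3.07, 2.47 to 3.88). The helicase genes Mcm5 and Mcm6 had ratios of 0.61 and 0.47, and Pcna itself -0.01. The UMIs of most of these genes were spread over many cells. The 10 cells with most UMIs held 26.9% of the Ccnb2 and of the Stmn1 UMIs in IR and 50.5% of the Birc5 UMIs, and without them in each pool the median of the mitosis list was 0.17, with 6 of 14 counted members past the limit. With each cell weighted equally (the mean of per-cell CPM), the median log2 ratio of mitosis and G2/M genes was -0.00877.

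Dividing-cell genes were higher in the monocyte-like cells. There the median ratio of the mitosis list was 0.97 over 14 counted members, 7 of them past the limit, against 0.503% of all genes counted in that class. The median of the replication list was 0.78 over 10 members. The mitosis median was -0.15 in neutrophil-like and 0.00 in nonclassical monocyte-like cells, with 5 members counted in each. In monocyte-like cells Ccnb2 went from 13 to 300 UMIs (4.07, 3.37 to 5.09), Stmn1 from 29 to 426 (3.47, 2.97 to 4.11) and Birc5 from 2 to 99. Thinned to 5000 UMIs, 0.860% of monocyte-like cells in control held a Ccnb2 UMI (6 of 698, 0.316% to 1.86%) and 9.65% in IR (71 of 736, 7.61% to 12%). For Stmn1 the shares were 1.58% and 11.5%, for Pclaf 0.430% and 5.57%, and for Mki67 1.86% and 4.21%. In neutrophil-like cells thinned to 1500 UMIs, 0.0918% and 0.116% held a Ccnb2 UMI (3 and 4 cells), and the median depth of these cells was 2457 and 2539 UMIs against 10441 and 12623 in the monocyte-like cells.

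The same cells held several of these genes. Monocyte-like cells with a Ccnb2 UMI numbered 7 in control and 114 in IR. In IR, 71.1% of them also held a Stmn1 UMI and 29.8% a Birc5 UMI, against 12.6% and 2.24% of the 626 monocyte-like cells without Ccnb2, at median depths of 13231.5 and 12514.5 UMIs. Both sets held monocyte genes. Ccr2, the receptor that draws monocytes from the marrow, stood at 1217 CPM in cells with Ccnb2 and 960 CPM in cells without, and Ly6c2 at 2681 and 2136 CPM. Csf1r, which rises as monocytes mature, stood at 220 and 341 CPM. With a finer clustering a separate unnamed cluster of 1 control and 66 IR cells, led by Ccnb2 and Stmn1, was set apart, and the mitosis median of the remaining monocyte-like cells was 0.36.

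**Figure D4:**
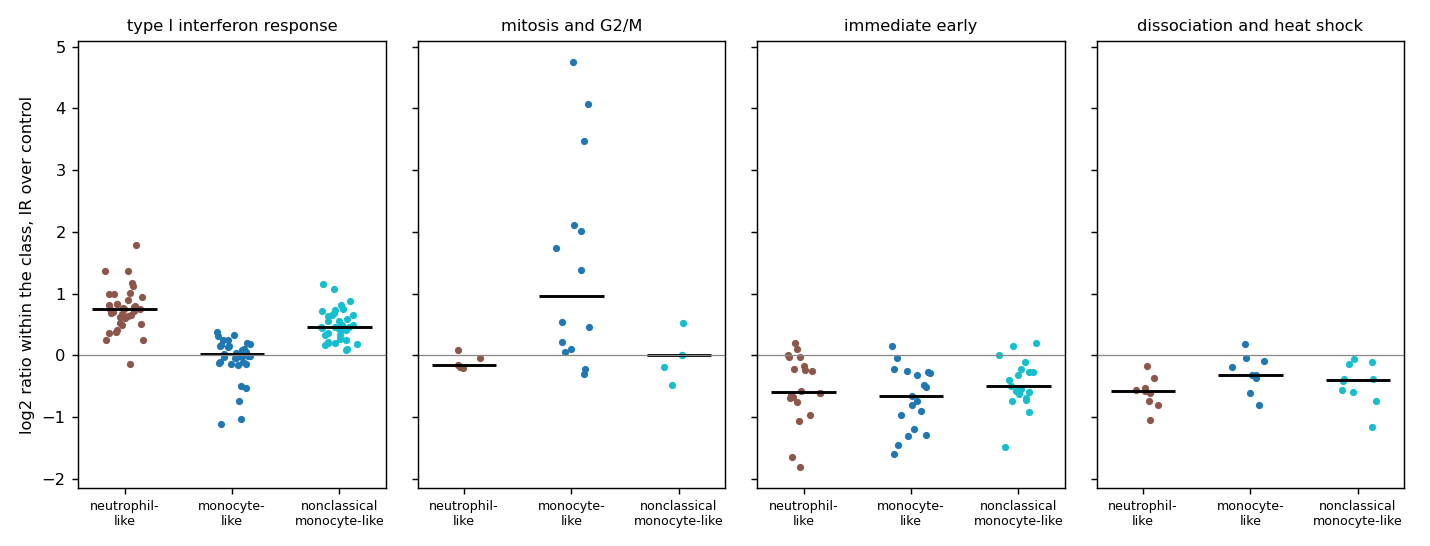
Log2 ratio of IR over control within each class for the counted members of 4 gene lists (1 point per gene, black bars at the medians). The interferon points center on 0.75 in neutrophil-like and 0.03 in monocyte-like cells, the mitosis points lie mostly above 0 in monocyte-like cells, from -0.30 to 4.76 with a median of 0.97, and the immediate early and heat shock points lie mostly below 0 in all 3 classes.

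Granule genes gave the 2 highest ratios, and 1 cell set most of both. Elane (chr10:79886247-79888215, forward strand), which encodes neutrophil elastase, had 12 UMIs in 9 control cells and 469 in 48 IR cells, a ratio of 5.11 (4.4 to 6.18). A single IR cell held 407 of the 469. Mpo, which encodes myeloperoxidase, had 4 UMIs in 4 cells and 137 in 7 cells (4.73, 3.64 to 6.93), and the same cell held 131. It had 28728 UMIs, lay among the monocyte-like cells, and also held 292 of 1071 Prtn3, 129 of 349 Fcnb and 33 of 120 Ctsg UMIs. These are genes of the granules that neutrophil and monocyte progenitors make before they leave the marrow.

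Of the other granule genes, Prtn3 and Fcnb were spread over more cells, whereas few cells held most UMIs of Camp, Ngp and Ltf. Prtn3, which encodes proteinase 3, went from 12.6 CPM in 202 cells to 42.9 CPM in 428 cells (1.76, 1.58 to 1.95), and to 1.37 without the 10 cells with most UMIs. Fcnb, which encodes ficolin B, went from 91 UMIs in 76 cells to 349 in 139 cells (1.86, 1.54 to 2.22), and to 1.32 without them. The specific and gelatinase granule list, made later in neutrophil maturation, had a median of 0.25. Of its 20 members 15 were above 0, 3 below and 2 past the limit upward, against 21.5%, 14.6% and 0.353% of all counted genes. Camp, which encodes the antimicrobial peptide cathelicidin, had 374 UMIs in 35 cells and 1298 in 32 cells (1.73, 1.56 to 1.90), and 10 cells held 81.3% and 84.0% of them. Ngp had a ratio of 0.99, and 10 cells held 73.1% of its UMIs in control and 81.8% in IR. Ltf had a ratio of 0.90, and 10 cells held 88.7% and 86.7%. Genes of mature neutrophils had a median of -0.04, with 10 of 24 above 0 and 11 below, against the same 21.5% and 14.6%. S100a9 and S100a8, whose products form calprotectin, had ratios of 0.13 and -0.10.

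**Figure D5:**
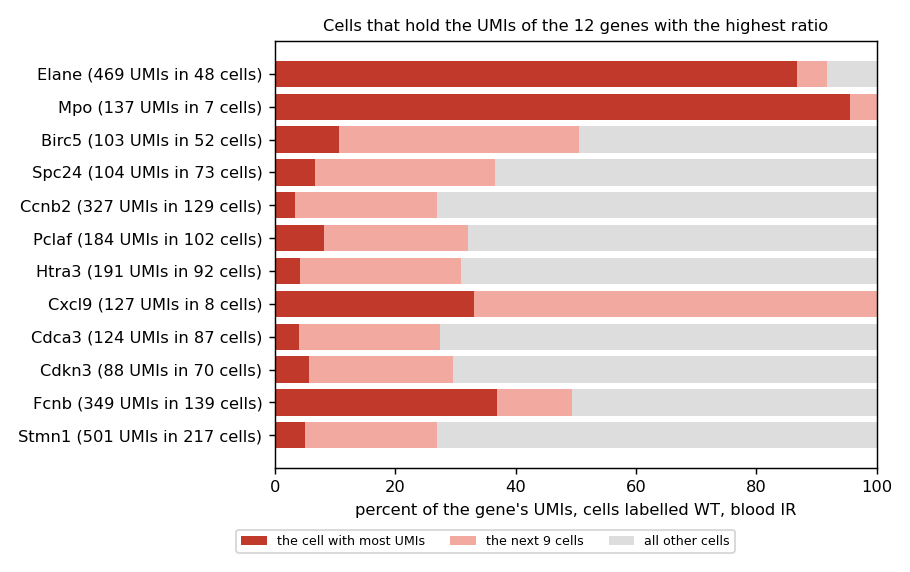
Percent of the UMIs of the 12 genes with the highest ratio held by the cell with most of them (dark red), the next 9 cells (pink) and all others (grey) in blood IR, cells labelled WT. For Elane and Mpo a single cell holds most UMIs, for Cxcl9 all UMIs lie in 8 cells, and Ccnb2 and Stmn1 are spread, with 26.9% in the first 10 cells.

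Immediate early genes were lower after IR as a group. All 21 listed genes were counted, and 19 had intervals below 0 against 14.6% of all counted genes and 1 above 0 against 21.5%. Past the limit were 4, all lower, against 0.917% of all counted genes. The median ratio was -0.64 and the summed level went from 23671 to 16355 CPM. Egr1, a zinc finger transcription factor gene, had 35335 UMIs in 4238 control cells and 12386 in 2416 IR cells, a ratio of -1.58 (-1.61 to -1.55). The orphan nuclear receptor genes Nr4a2 and Nr4a3 had 380 and 137 UMIs (-1.53, -1.83 to -1.25) and 103 and 39 UMIs (-1.44, -2.04 to -0.92). Fosb, an AP-1 subunit gene, had 11213 and 5660 UMIs (-1.05, -1.10 to -1.01). The far more abundant Junb, Dusp1 and Fos had ratios of -0.65, -0.62 and -0.55, and Ier3 (0.23) was the member above 0. Medians were -0.59, -0.66 and -0.50 in the neutrophil-like, monocyte-like and nonclassical monocyte-like cells. In thinned cells an Egr1 UMI was found in 80.4% and 34.7% of neutrophil-like, 89.8% and 54.5% of monocyte-like, and 91.1% and 75.9% of nonclassical monocyte-like cells.

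Heat shock genes, which also respond to the handling of cells, were lower as well. Of 10 members 9 had intervals below 0 against 14.6% of all counted genes and none above against 21.5%, with a median of -0.48. Hspa1b was past the limit with 318 and 148 UMIs (-1.17, -1.46 to -0.88). The control pool stood apart from the other 3 blood pools in Egr1. A UMI of Egr1 was found in 83.1% of WT control cells, 49.3% of WT IR cells, 55.3% of cKO control cells and 50.4% of cKO IR cells. The summed immediate early level was 23671 CPM in WT control and 16355, 17229 and 13963 CPM in the others, in the same order. Free RNA held 909 CPM of Egr1 in control and 411 CPM in IR. The part of cell handling, and of the library, in these values was not tested.

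Targets of NF-kB, the transcription factor of inflammatory signalling, were lower on balance, with 18 of 26 counted members below 0 against 14.6% of all counted genes, 2 above against 21.5%, and a median of -0.22. The chemokine genes Ccl4 and Ccl3, which attract monocytes and lymphocytes, had 1993 and 782 UMIs (-1.42, -1.54 to -1.30) and 1676 and 802 UMIs (-1.13, -1.25 to -1.01), and Cd83, a surface marker of activated cells, 135 and 63 UMIs (-1.15, -1.62 to -0.72). Within neutrophil-like cells Ccl4 and Ccl3 had ratios of -1.28 and -1.15. The list of chemokines, receptors and egress genes had a median of -0.14. Of its 22 counted members 5 were above 0 and 12 below, against 21.5% and 14.6% of all counted genes. Its members Ccr7 (-1.31) and S1pr1 (-1.10), which guide lymphocytes, had mix-only ratios of -1.5 and -1.21. The mix-only ratio joins the control profile of each class with the IR shares of UMIs of the classes.

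Lymphocyte genes were lower after IR over all WT cells. Of 11 T cell markers 9 were counted, all 9 had intervals below 0, 8 were past the limit against 0.917% of all counted genes, and the median ratio was -1.74. Il7r, which encodes the receptor of the T cell survival factor interleukin 7, had 239 UMIs in 54 control cells and 40 in 14 IR cells (-2.62, -3.17 to -2.16). Cd3e, a subunit gene of the T cell receptor complex, had 108 UMIs in 45 cells and 25 in 10 cells (-2.13, -2.87 to -1.54). Dapl1, Bcl11b, Cd8b1, Ctla2a and Tcf7, also among the 12 lowest genes and mostly genes of T cells, had ratios between -2.67 and -1.79. All 10 NK cell markers had intervals below 0 and 4 were past the limit, against 14.6% and 0.917% of all counted genes. Their median was -0.89, and Klra8, an NK receptor gene, had 801 and 309 UMIs (-1.44, -1.64 to -1.25). The mix-only medians were -1.77 for T cell and -0.98 for NK cell markers. Of the 91 lower genes, 36 had a mix-only ratio past the limit, and of the 35 higher genes none did. The share of all counted genes with such a mix-only ratio is not given here.

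Hemoglobin genes were the lowest of the abundant genes. Hbb-bs, a beta globin gene, had 17023 UMIs in 588 control cells and 2839 in 142 IR cells, a ratio of -2.65 (-2.71 to -2.59). Hba-a1, Hba-a2 and Hbb-bt had ratios of -2.51, -2.31 and -2.02, and Alas2, which encodes the first enzyme of heme synthesis in red cells, 92 and 11 UMIs (-3.02, -4.18 to -2.23). The 10 cells with most Hbb-bs UMIs held 95.2% of them in control and 95.4% in IR, and they lay among the neutrophil-like and nonclassical monocyte-like cells in control and the neutrophil-like and monocyte-like cells in IR. The 8 erythroid markers in the files summed to 1349 and 242 CPM in WT, and to 5302 and 397 CPM in cKO. Free RNA held 2408 CPM of Hbb-bs in control and 1017 CPM in IR, against 715 and 114 CPM in the WT cells, and its part in these values was not tested. How far reads of the paired, near-identical globin genes can be told apart was not tested.

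Markers of other cells that a blood sort could hold are given next. The 7 platelet markers summed to 2.02 and 1.24 CPM, with 3 at 0 in each pool, and the 9 carcinoma or stroma markers to 1.22 and 0.722 CPM, with 5 and 4 at 0. Eosinophil markers summed to 8.40 and 10.02 CPM, with 2 of 5 at 0 in each pool. Basophil or mast cell markers summed to 644 and 575 CPM with none at 0, nearly all of it Hdc (637 and 573 CPM), which the mature neutrophil list also holds. Plasmacytoid dendritic cell markers summed to 243 and 239 CPM with 1 of 8 at 0. Of their 5783 UMIs in control, 2604 lay in monocyte-like and 1322 in nonclassical monocyte-like cells. The list holds Bst2, which is also on the interferon list, and no cluster was named plasmacytoid. B cell markers had a median ratio of -0.49, with Ms4a1, the CD20 gene, at 175 and 70 UMIs (-1.38, -1.81 to -0.98). Conventional dendritic cell markers had a median of -0.56, with Cd209a at 1317 and 593 UMIs (-1.22, -1.36 to -1.08).

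Classical and nonclassical monocyte genes were read as separate lists. Classical monocyte genes had a median of 0.01, with 8 of 18 above 0 and 6 below, against 21.5% and 14.6% of all counted genes. Nonclassical monocyte genes had a median of -0.22, with 3 of 22 above 0 and 13 below, against the same shares. Fabp4, a fatty acid carrier gene on this list, was past the limit with 196 and 76 UMIs (-1.42, -1.84 to -1.04). Apoe (chr7:19696109-19699188, reverse strand), a lipid carrier gene of maturing monocytes and macrophages, had 15036 UMIs in 1466 control cells and 6136 in 1149 IR cells, a ratio of -1.36 (-1.40 to -1.32). It was lower in monocyte-like cells (706 to 192 CPM, -1.88) and nonclassical monocyte-like cells (1726 to 549 CPM, -1.65), and stood at 164 and 201 CPM in neutrophil-like cells. Free RNA held 711 CPM of Apoe in control and 278 CPM in IR. In monocyte-like cells Flt1, a VEGF receptor gene, had a ratio of -1.53, Atf3, a stress transcription factor gene, -1.31, and Cd14, a receptor gene for bacterial lipopolysaccharide, -1.14. Mt1, a metallothionein gene, was lower in all 3 classes (-1.83, -1.11 and -1.03).

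Genes past the limit were also found within the nonclassical monocyte-like cells. Of 6751 genes counted there, 19 were higher (0.281%) and 21 lower (0.311%). Htra3, a secreted protease gene, had 23 and 177 UMIs in them (3.07, 2.49 to 3.82) of 30 and 191 in all WT cells. Ly6a, which encodes Sca-1 and responds to interferons, had 70 and 255 UMIs (2.03, 1.66 to 2.45). The complement gene C1qb had 38 and 119 UMIs (1.80, 1.29 to 2.39), and 10 cells held 91.1% and 74.3% of its UMIs over all WT cells. Gbp5, Gbp2, Gbp7 and Gbp3 had ratios of 1.42, 1.40, 1.28 and 1.26, and the last 3 were also past the limit in neutrophil-like cells (1.0, 1.03 and 1.10). Trem1, an amplifier of innate signalling (-1.41), and the cytokine gene Osm (-1.19) were lower, Osm also in monocyte-like cells (-1.08). Trem1 is on the mature neutrophil list, which had a median of -0.46 in this class. Of its 24 members 21 were below 0 against 8.41% of all genes counted there, and 2 above against 15.1%. The lowest ratios in the class were those of hemoglobin genes, with Hbb-bs at 3153 and 16 UMIs. The part of RNA from other cells in these values was not tested. Ly6a, the Gbp genes, Trem1 and Osm were chosen after their values in this class were seen.

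Several groups had medians near 0. The 17 counted p53 targets, which rise in cells that are themselves hit by radiation, had a median of 0.04, with 4 above 0 and 4 below, and none past the limit. The lowest was Btg2 (-0.67), which is also on the immediate early list, and Rps27l stood at 0.13. Suppressive factors had a median of 0.05 (7 of 17 above 0, 7 below), acute phase and alarmin genes 0.13 (9 of 13 above, 2 below), and m6A readers, writers and erasers -0.03 (1 of 16 above, 4 below). None of these lists had a member past the limit, and of all counted genes 21.5% were above 0 and 14.6% below. MHC class II genes, by contrast, were lower over all WT cells, with a median of -0.50 and a mix-only median of -0.39. Of 13 members 8 were below 0 against 14.6% of all counted genes, and 1 above against 21.5%. Within classes their medians were -0.27, 0.07 and -0.06 in neutrophil-like, monocyte-like and nonclassical monocyte-like cells. Macrophage markers had a median of 0.01, with Apoe and C1qb past the limit in opposite directions.

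The same comparison in the cKO cells of these libraries and in WT cells of the tumor showed which values were shared. The cKO cells came from the same 2 libraries and carry the same library effects, and no test of a difference between comparisons was possible. Of the 35 genes higher in WT blood, 34 were counted in cKO blood, 14 were past the limit in the same direction and 4 in the opposite one, where 0.395% of all counted genes were higher and 0.973% lower. Birc5 and Ccnb2 had ratios of 3.99 and 3.82 in cKO, and the interferon list a median of 0.41. Granule genes were split in cKO. Ngp (-3.26), Camp (-2.46), Mpo (-3.03) and Ctsg (-0.88) had the opposite sign there, Prtn3 (0.69, 0.56 to 0.83) and Fcnb (0.80, 0.46 to 1.15) the same sign, and the interval of Elane (0.23, -0.18 to 0.65) included 0. Htra3 (-1.11) and Cxcl9 (-3.79) also had the opposite sign. In cKO control the cell with most UMIs of a gene held 89 of 92 for Mpo, 75 of 134 for Ctsg and 146 of 170 for Cxcl9. It held 58 of 94 for Elane, 233 of 747 for Prtn3 and 115 of 2558 for Camp. Very few cells therefore set the cKO control values, and with them the cKO ratios, of Mpo, Elane, Ctsg and Cxcl9. Of the 91 genes lower in WT blood, 57 were counted in cKO and 20 were past the limit, all lower, and the immediate early median was -0.32.

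In the tumor the WT comparison had more genes past the limit, 2.64% higher and 3.84% lower of 10311 counted. Hashtag margins were smaller there than in blood. In WT cells the median was 525 UMIs of B0301 against 153 of B0302 in tumor control, and 668 against 107 in tumor IR. B0301 was at least 3 times B0302 in 1576 of 2703 WT cells of tumor control, against 4967 of 5101 in blood control. The hashtag limit removed 7289 of 13144 barcodes in tumor control and 4919 of 12927 in tumor IR. The interferon list was higher there, with a median of 1.99 and intervals above 0 for all 40 counted members, against 20.8% of all genes counted in the tumor above 0 and 42.1% below, and Ifit3 had a ratio of 3.1. Mitosis genes had a median of -0.03 and replication genes of -1.05 in the tumor, with Stmn1 at -0.86 and Pclaf at -1.08, against 1.84 and 3.07 in blood. Immediate early genes had a median of 0.15 and NF-kB targets of 0.21, and Ccl4 and Ccl3 had ratios of 1.65 each. Mature neutrophil genes had a median of 1.08 in the tumor. Apoe was lower in both tissues, with ratios of -1.36 in blood and -1.5 in the tumor. Of the 35 genes higher in blood, 28 were counted in the tumor, where 5 were past the limit upward and 3 downward. Of the 91 lower in blood, 72 were counted there, with 35 past the limit downward and 4 upward.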

How the data were processed

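Blood cells sorted as CD45+CD11b+Ly6Chi were profiled by 3′ droplet sequencing with hashtag antibodies, 1 library for control and 1 for IR, each mixing cells labelled WT and cKO. The authors deposited raw UMI counts per gene and barcode, aligned to mm10 per the labels. Their processing notes name Cell Ranger 6.0.1 and Seurat 4.0.6, whereas the file headers name another Cell Ranger version. Barcodes were filtered and labelled as given in the opening of the report, with 2844 and 2883 median UMIs per WT cell. UMIs were summed per pool and scaled to CPM. Log2 ratios used 1 added UMI, with exact conditional binomial 95% intervals. Shares have Clopper-Pearson intervals and differences of shares Newcombe intervals. The intervals cover counting error only. With 1 pool per group no replicate test could be made, and none was run.

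WT cells of both libraries were clustered with Seurat 5.3.0 in R 4.3.3 (2000 variable genes, 40 principal components, Louvain resolution 0.8). A cluster was called by a cell type with at least 3 of its markers in at least 25% of cells and at least 2 times higher than in the rest, thresholds set after the data were seen. Doublets were not removed. Leaving out the 6% of barcodes with the highest Scrublet score (scanpy 1.11.5) was an alternative. Free RNA was read from barcodes with fewer than 100 gene UMIs. The scripts were tested on simulated data. Python 3.11.15, numpy 2.4.6, scipy 1.17.1, pandas 2.3.3 and edgeR 4.0.16 (TMM factors, as an alternative scaling) were used.

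The members and the 29 gene lists were chosen with earlier results of these data known. Named genes are the 12 highest and 12 lowest past the limit, up to 4 members past the limit of each list or otherwise the 2 with most UMIs, the 5 highest and lowest in neutrophil-like and monocyte-like cells, and the genes that check the labels and the sort. Other list members and genes given with their values were chosen after those values were seen. Alternatives were other gene and barcode limits, other clusterings, another added UMI number, TMM scaling, per-cell means, and each gene without its 10 highest cells. The last of these, the left-out unnamed cluster and the clusterings used within classes were chosen after seeing the data. Gene positions are on mm10, and upstream sequences are from RefSeq on GRCm38.p6.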

Additional observations from a re-analysis of the deposited data

How the results depend on the processing

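No paired analysis was possible because each group was 1 pool and the groups share a single replicate number, and no replicate could be left out for the same reason. Of the alternatives for counts, list medians and class shares, 201 stayed close to the reported value, and those that differed by more than its counting interval or by more than 1.5 times are given here. The genes higher after IR numbered 125 with at least 20 UMIs per gene and 9 with at least 500, and the genes lower numbered 227 and 30, since more or fewer genes were then counted. With means of per-cell CPM, which weight each cell equally, the median log2 ratio of mitosis and G2/M genes was -0.00877 (a change of sign). The other medians were then 0.57 for type I interferon, -0.25 for replication (also a change of sign), -0.54 for immediate early and -0.60 for heat shock genes. The monocyte-like share differed by -0.0678 points at resolution 0.4, a change of sign. At resolution 1.2 the mitosis median in monocyte-like cells was 0.36, where dividing cells lay in a cluster of their own, and the value from the class mix alone was 0.0597 (mix-only log2 ratio: median of immediate early genes). Without the 6% of barcodes with the highest Scrublet scores, the mix-only median of T cell markers was -2.44, and the cause was not tested. Among named genes 614 alternatives stayed close and 106 differed by more than the counting interval. Of the named genes whose interval did not include 0, 0 changed sign. Changes of sign in the other named genes were not counted. Depth limits genes such as Birc5 and Mpo, with 5 and 4 UMIs in control.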

Other observations

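Cells with a Ccnb2 UMI made up 0.353% of WT control, 2.63% of WT IR, 0.509% of cKO control and 3.74% of cKO IR blood cells. For Ifit3 the shares were 5.78%, 12.6%, 6.57% and 12.1% in the same order. Both genes were found in more cells of the IR library under either hashtag label. Ngp stood at 140 and 278 CPM in WT and at 987 and 103 CPM in cKO, and the NK cell markers at 837 and 486 CPM in WT and at 274 and 232 CPM in cKO.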
